A study of Mus musculus with 23 samples.

Results

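The genes described are 40 mouse genes of the response to interferon and to foreign nucleic acid, chosen by symbol: every probe set of the array annotated to one of the 40 symbols was taken. Of these, 37 genes had at least 1 probe set of their own, 62 probe sets in all, out of 18193 genes and 45101 probe sets on the array. They comprised 6 sensors, 9 signalling genes, 7 effectors that act on double-stranded RNA and 15 other effectors. Oas1g and Ifi44 had no probe set annotated to them, and the probe set for Isg15, the ubiquitin-like modifier that interferon induces, was annotated to Gm9706 as well, so these 3 genes enter no count.

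Expression was measured in 23 single mouse cells, each taken with a glass micropipette from a culture in DMEM with fetal bovine serum, its RNA amplified, and hybridized to 1 Affymetrix array. The study gave cells the poly-A RNA of another cell with a lipid reagent, a procedure called transcriptome-induced phenotype remodeling (TIPeR). The 6 groups were 5 fibroTIPeR cells (fibroblasts given cardiomyocyte RNA), 3 fibroControl cells (fibroblasts given fibroblast RNA), 3 untreated fibroblasts, 4 untreated cardiomyocytes, 6 astroTIPeR cells (astrocytes given cardiomyocyte RNA) and 2 astroControl cells (astrocytes put through a mock transfection). The astrocytes thus had a mock control and no untreated group, whereas the fibroblasts had an RNA control and an untreated group. Every n counts cells. The labels name no separate cultures or animals within a group, so a p-value here covers the cell-to-cell spread alone, which may in part be technical.

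Mammalian cells sense RNA that enters them through cytosolic helicases such as Ifih1 (MDA5) and its regulator Dhx58 (LGP2), and through endosomal receptors such as Tlr3 for double-stranded and Tlr7 for single-stranded RNA. The sensors signal through adaptors such as Mavs to the factors Irf3 and Irf7, which switch on type I interferon genes. Interferon then acts through the receptor chains Ifnar1 and Ifnar2 and factors such as Stat2 and Irf9, which act at interferon-stimulated response elements in the promoters of effector genes such as the Ifit, Oas, Mx and Gbp families. The comparisons below ask whether cells given RNA differed in these genes from cells that were not.

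Promoter sequences were looked up by symbol in a RefSeq table of build GRCm38.p6, which gave one for 31 of the 40 genes; Dhx58, Tlr7, Zbp1, Usp18, Oas2, Mx1, Mx2, Iigp1 and Parp14 had no entry. The 250 bases before the start were searched on both strands for the core of the interferon-stimulated response element, GAAANNGAAA (TTTCNNTTTC on the other strand). Of the 31 genes, 13 (41.9%) held it, namely Stat2, Oas1a, Oas1g, Oas3, Ifit1, Ifit3, Isg15, Rsad2, Bst2, Gbp2, Gbp3, Igtp and Irgm1, against 936 of 27025 genes with a promoter in the table (3.46%); a gene was counted if any of its promoters held it. A match describes letters in this window and not a bound site. The sequences of 4 genes whose levels are followed below are shown, 5′ to 3′ on the strand of the gene, with matches in capitals. Ifit1 lies at chr19:34640639-34640888 on the plus strand with 2 matches, which start 104 and 85 bases before the gene's start. Igtp lies at chr11:58199306-58199555 on the plus strand with 1 match 34 bases before the start. Oas3 lies at chr5:120777660-120777909 on the minus strand with 1 match 75 bases before the start. Aim2, a DNA sensor shown for contrast, lies at chr1:173420354-173420603 on the plus strand with 0 matches.
Ifit1: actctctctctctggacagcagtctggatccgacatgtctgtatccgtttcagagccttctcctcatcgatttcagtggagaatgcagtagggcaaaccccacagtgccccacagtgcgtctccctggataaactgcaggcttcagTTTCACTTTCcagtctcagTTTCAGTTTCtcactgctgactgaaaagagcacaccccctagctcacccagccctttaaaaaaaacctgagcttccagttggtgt
Igtp: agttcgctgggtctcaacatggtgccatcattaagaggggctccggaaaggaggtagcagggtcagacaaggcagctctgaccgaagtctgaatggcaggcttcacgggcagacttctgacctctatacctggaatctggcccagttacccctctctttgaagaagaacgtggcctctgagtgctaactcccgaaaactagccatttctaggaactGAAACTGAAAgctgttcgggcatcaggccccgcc
Oas3: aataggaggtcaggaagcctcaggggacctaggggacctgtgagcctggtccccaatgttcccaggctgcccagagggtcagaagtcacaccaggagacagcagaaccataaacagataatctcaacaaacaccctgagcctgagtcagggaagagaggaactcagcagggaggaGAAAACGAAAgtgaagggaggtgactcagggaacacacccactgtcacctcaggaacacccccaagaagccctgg
Aim2: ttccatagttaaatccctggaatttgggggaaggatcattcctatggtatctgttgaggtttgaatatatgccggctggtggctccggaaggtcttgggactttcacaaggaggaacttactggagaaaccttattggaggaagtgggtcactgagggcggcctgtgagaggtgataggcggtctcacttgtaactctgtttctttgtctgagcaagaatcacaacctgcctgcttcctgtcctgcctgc

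Levels are log2 values after quantile normalization of all arrays. The median gene of a cell read 5.59 to 5.83 and the 75th percentile 7.69 to 8.02. Several members read low on this scale. By mean over all cells, Ifih1 stood at percentile 15 of genes, Tlr3 at 16.1, Ifit1 at 14.6, Usp18 and Mx1 at 13.1, Bst2 at 11.5 and Isg20 at 3.4. Tlr7 stood at 21.2 and Aim2 at 32.1, and in fibroControl cells they read at most 3.42 and 3.0. Whether genes at such levels were detected was not tested. Group labels were checked against markers: the sarcomere gene Tnni3 averaged 11.96 in cardiomyocytes and at most 5.05 in the other groups, and Vim, the filament protein of mesenchymal cells, 14.85 in fibroblasts against 5.81 in cardiomyocytes, although cardiomyocyte 4 read 11.4. Of 6 cardiomyocyte markers 5 averaged highest in cardiomyocytes, but Tnnt2 averaged 7.99 there and 8.46 in fibroblasts, with fibroblast 3 at 11.28. Fibroblast 3 also read Myh6 at 8.48, against 5.67 and 5.69 in the other fibroblasts. The mean of 6 endothelial markers was 6.88 in cardiomyocyte 2, with Cdh5 and Kdr at 10.2 each, and 5.37 to 5.54 in the other cardiomyocytes. Of 6 fibroblast markers 5 averaged higher in fibroblasts than in cardiomyocytes, but Thy1 averaged 6.28 in fibroblasts and 8.02 in cardiomyocytes. Astrocyte markers did not set the astrocyte groups apart: Gfap, the glial filament protein, read 4.69 in astroTIPeR and 5.32 in astroControl cells against 6.01 in fibroblasts, and the mean of 6 astrocyte markers was 6.09 to 7.05 in astroTIPeR cells against 6.18 to 6.96 in fibroblasts. The mean of 12 macrophage and microglia markers was 6.58 to 8.32 in astroTIPeR cells, 6.30 to 7.19 in astroControl cells and 5.61 to 6.79 in all other cells, with 3 to 6 of the 12 above the 75th percentile of genes in astroTIPeR and 2 to 4 in all other cells. The 18S ribosomal RNA control probe sets read 11.2 to 12.1 in fibroControl cells, 12.38, 11.03, 13.48, 7.80 and 7.88 in fibroTIPeR 1 to 5, and 7.05 to 8.06 in untreated fibroblasts, so that fibroTIPeR 1 to 3 and the fibroControl cells stood apart from the other fibroblasts. The Gapdh control probe sets read higher at the 3′ than at the 5′ end. The difference was 2.94 to 5.05 in astroTIPeR cells and 1.51 and 2.63 in astroControl cells, without overlap, and it overlapped between the fibroblast groups. Whether it reflects RNA quality or the amplification was not tested.

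No member rose past the threshold in any group of cells given RNA. A gene was called when its adjusted p in limma, over all 18193 genes, was under 0.05. In fibroControl cells against untreated fibroblasts 3 of 37 members were called (1.56% of all genes were), all 3 lower (0.835% of all genes): Parp14, Tlr7 and Aim2. At an unadjusted p under 0.05 there were 9 (17.3% of all genes), of which 5 had a higher mean in fibroControl cells (8.54% of all genes), Igtp, Usp18, Tlr3, Adar and Ifit1, and 4 a lower one (8.8%), Eif2ak2, Tlr7, Aim2 and Parp14. In fibroTIPeR cells against untreated fibroblasts 0 of 37 were called by limma (0.055% of all genes), with 7 at an unadjusted p under 0.05 (10.1% of all genes): Oas3 and Adar with a higher mean, and Parp14, Tlr7, Eif2ak2, Aim2 and Ifit3 with a lower one. The fibroControl and fibroTIPeR comparisons share their 3 untreated fibroblasts. Between the fibroTIPeR and fibroControl cells 0 of 37 were called by limma (0.0055% of all genes), with 7 at an unadjusted p under 0.05 (6.62%): Tlr7, Aim2 and Parp14 with a higher mean in fibroTIPeR cells, and Igtp, Ifit1, Gbp3 and Isg20 with a lower one. In astroTIPeR against astroControl cells 0 of 37 were called by limma (0.0495% of all genes), with 4 at an unadjusted p under 0.05 (9.44%). In untreated cardiomyocytes, the source of the RNA, against untreated fibroblasts 0 of 37 were called by limma (0.225% of all genes), with 4 at an unadjusted p under 0.05 (9.72%).

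**Figure D1:**
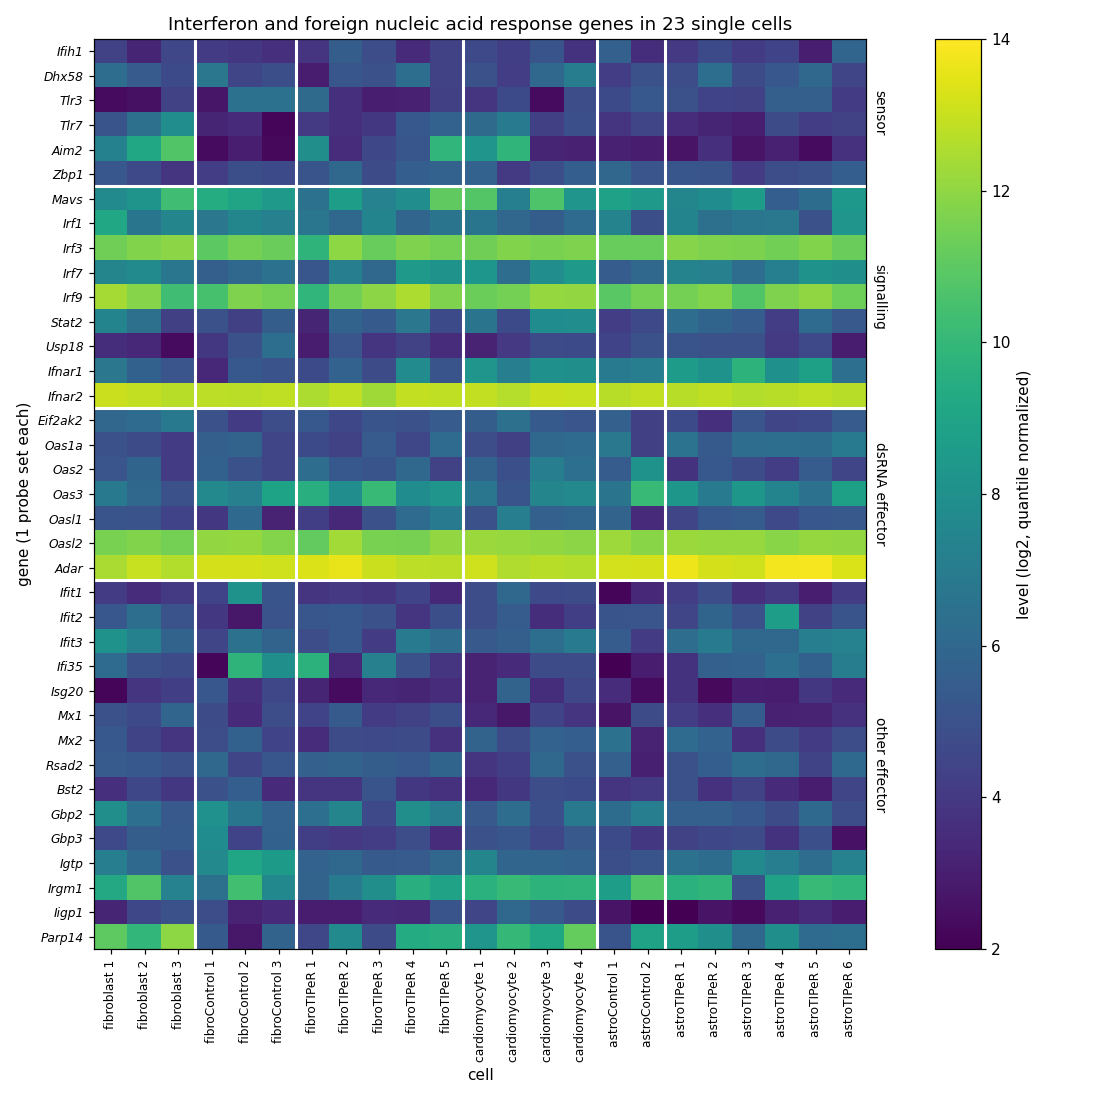
Level (log2, colour) of the 37 measured genes, 1 probe set each, in the 23 cells, with genes listed by role and cells by group. Adar, Ifnar2, Oasl2, Irf3 and Irf9 read above the 75th percentile of genes in every cell, while Parp14 and Aim2 are lower in the fibroControl than in the fibroblast cells.

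The median member stood close to the median gene. The median difference over the 37 members was -0.076 in fibroControl against fibroblast (all genes 0.029), -0.25 in fibroTIPeR against fibroblast (all genes 0.0040), -0.12 in fibroTIPeR against fibroControl (all genes -0.020), 0.18 in astroTIPeR against astroControl (all genes 0.079) and 0.24 in cardiomyocyte against fibroblast (all genes 0.087). Means were higher in the group given RNA for 16 of 37 members in fibroControl (51.1% of all genes), 15 of 37 in fibroTIPeR against fibroblast (50.2%) and 24 of 37 in astroTIPeR (54.4%). They were higher for 16 of 37 members in fibroTIPeR than in fibroControl cells (48.8% of all genes) and for 24 of 37 in cardiomyocytes than in fibroblasts (54.3%). These are counts of direction, most of them for differences that did not pass the test.

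**Figure D2:**
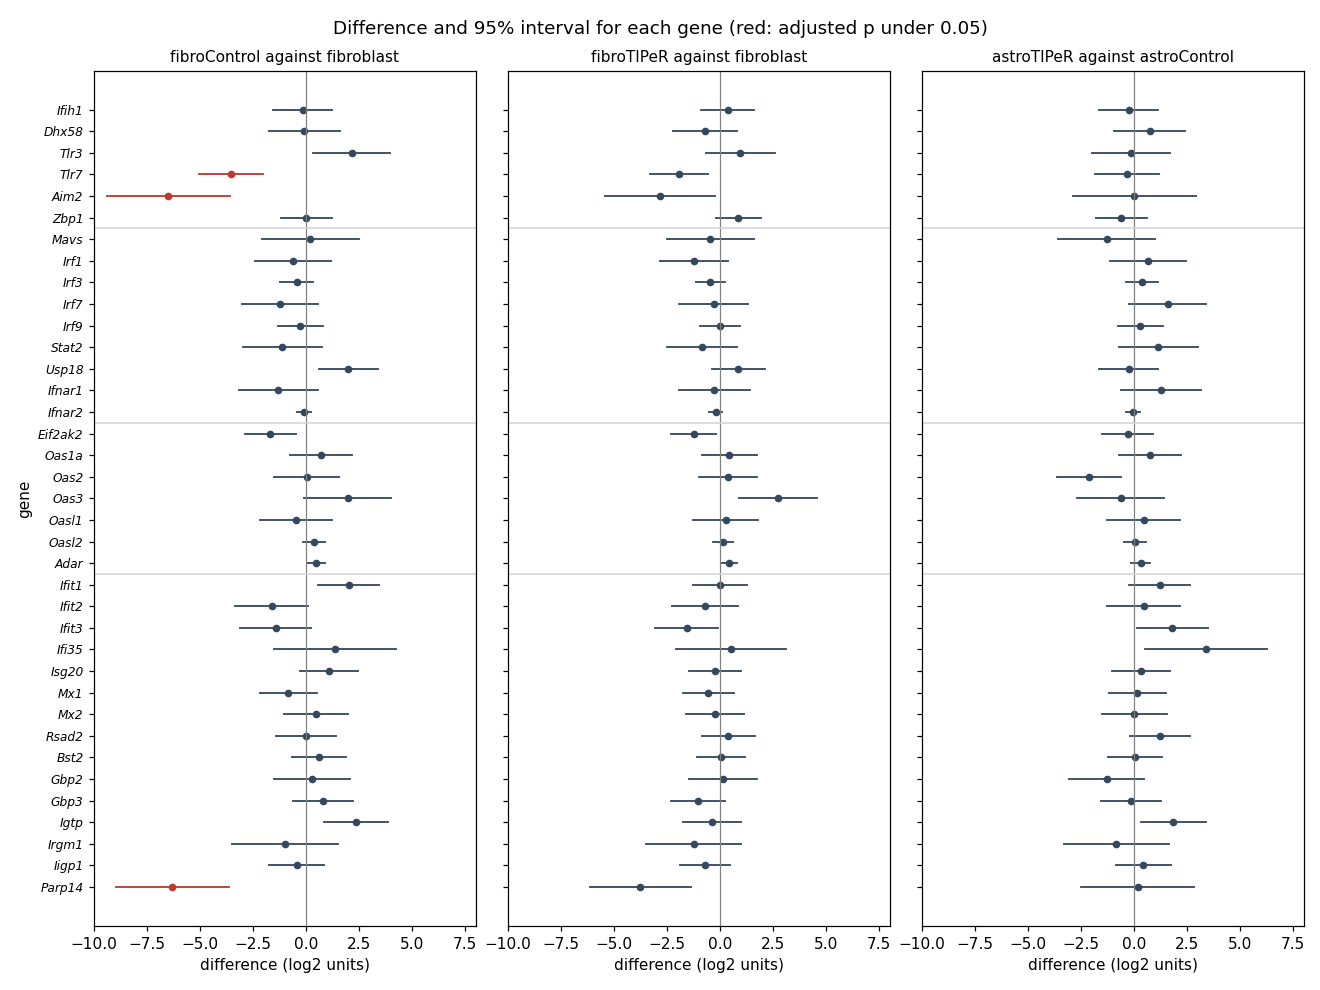
Difference in mean level (log2 units, points) with its 95% interval (bars) for each of the 37 genes in 3 comparisons, from limma; red marks an adjusted p under 0.05. Only Tlr7, Aim2 and Parp14 in the fibroControl panel are red, and most intervals in all 3 panels cross 0.

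Among the 6 sensors, the 2 that fell in fibroControl cells were an endosomal receptor and a DNA sensor, and neither cytosolic RNA helicase was called. Tlr7, the endosomal receptor for single-stranded RNA, read 5.12, 6.42 and 7.89 in untreated fibroblasts, 3.22, 3.42 and 2.18 in fibroControl cells and 4.03, 3.68, 3.95, 5.30 and 5.77 in fibroTIPeR cells. The fibroControl cells lay below all 3 fibroblasts (groups did not overlap for 23.4% of all genes), and fibroTIPeR 4 and 5 overlapped the fibroblasts. Tlr7 was lower in fibroControl than in fibroblast cells by a log2 difference of -3.53 (SE 0.74, limma adjusted p = 0.0193), with the same sign in 3 of 3 probe sets. Its difference in fibroTIPeR cells was -1.93 (SE 0.66, adjusted p = 0.325).

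Aim2, the cytosolic sensor of double-stranded DNA, spanned more than 8 log2 units over the fibroblast groups. It read 7.26, 9.14 and 10.7 in untreated fibroblasts, 2.33, 3.0 and 2.28 in fibroControl cells and 7.91, 3.51, 4.61, 5.21 and 9.91 in fibroTIPeR cells. The fibroControl cells lay below every fibroblast (groups did not overlap for 23.4% of all genes) and every fibroTIPeR cell (3% of all genes). The difference from fibroblasts was -6.50 in fibroControl (SE 1.41, limma adjusted p = 0.0208) and -2.81 in fibroTIPeR cells (SE 1.26, adjusted p = 0.451). In cardiomyocytes Aim2 read 8.24, 9.84, 3.25 and 3.09, a split within the group, and in all 8 astrocytes it lay between 2.35 and 3.73. Aim2 had 1 probe set on the array.

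The RNA helicase Ifih1 read 4.04 ± 0.70 in fibroblasts (SD, n = 3), 3.89 ± 0.23 in fibroControl (n = 3) and 4.40 ± 0.83 in fibroTIPeR cells (n = 5). Its intervals, -1.55 to 1.24 in fibroControl and -0.90 to 1.60 in fibroTIPeR against fibroblast, leave room for differences of more than 1 log2 unit either way. Dhx58 read 5.47 ± 0.79 in fibroblasts, 5.40 ± 1.21 in fibroControl and 4.77 ± 1.25 in fibroTIPeR cells, so the groups overlapped. Its other probe sets averaged 3.50 and 2.42 in fibroblasts and 3.91 and 3.08 in fibroTIPeR cells, in the other direction. Tlr3 read 2.34, 2.54 and 4.37 in fibroblasts against 2.72, 6.49 and 6.47 in fibroControl cells, a difference of 2.15 (SE 0.89) that missed the threshold (limma adjusted p = 0.208). In astrocytes the 3 sensors differed between astroTIPeR and astroControl cells by -0.25 (Ifih1), 0.73 (Dhx58) and -0.14 (Tlr3), each less than its SE of 0.68, 0.82 and 0.89. These values are for the probe sets used. The other probe sets of Dhx58 averaged 3.79 and 3.22 in astroTIPeR against 5.97 and 3.36 in astroControl cells, the opposite direction. The value of 5.97 holds astroControl 2 at 8.43. Zbp1, a sensor of left-handed nucleic acid, differed by at most 0.86 in either direction in the 5 comparisons for the probe set used. Its other probe set differed by -1.92 in fibroControl and by -1.52 in fibroTIPeR against fibroblast, where the one used stood at -0.0021 and 0.86.

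Of the 9 signalling genes none was called in any comparison. Mavs, the mitochondrial adaptor of the helicases, read 8.76 ± 1.37 in fibroblasts (n = 3), 8.97 ± 0.46 in fibroControl (n = 3) and 8.31 ± 1.73 in fibroTIPeR cells (n = 5). Irf7, the factor that amplifies interferon gene transcription, read 7.47, 7.71 and 6.71 in fibroblasts and 5.66, 6.01 and 6.53 in fibroControl cells, groups that did not overlap, as in 23.4% of all genes. Its difference of -1.23 (SE 0.88) did not pass (limma adjusted p = 0.492). In astrocytes Irf7 ran the other way, from 6.28 to 8.17 (median 7.31) in 6 astroTIPeR cells against 5.50 and 6.04 in astroControl cells, without overlap (11.8% of all genes), at 1.60 (SE 0.88, adjusted p = 0.607). Usp18, which takes Isg15 off proteins and dampens receptor signalling, had the smallest p of the role in fibroControl cells. It read 3.56, 3.39 and 2.33 in fibroblasts, 3.95, 4.99 and 6.33 in fibroControl and 2.92, 5.15, 3.81, 4.36 and 3.54 in fibroTIPeR cells. The fibroControl cells lay above all 3 fibroblasts (groups did not overlap for 23.4% of all genes), at 1.99 (SE 0.68, limma adjusted p = 0.124). The fibroTIPeR cells overlapped both groups. Stat2, which carries the interferon signal to the nucleus, read 6.04 ± 1.59 in fibroblasts, 4.91 ± 0.63 in fibroControl and 5.18 ± 1.32 in fibroTIPeR cells, within the spread between cells. Its other probe set read 3.74 ± 0.96, 3.67 ± 0.39 and 4.58 ± 0.70 in these groups, with the fibroTIPeR mean above that of fibroblasts. The receptor chain Ifnar1 read 8.24, 7.14, 8.03 and 7.97 in cardiomyocytes against 6.78, 5.73 and 5.18 in fibroblasts. These groups did not overlap (12.6% of all genes), and the difference of 1.94 (SE 0.85) had an adjusted p of 0.462.

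Over the role, fibroTIPeR cells had a higher mean than untreated fibroblasts for 1 of 9 signalling genes (50.2% of all genes) and fibroControl cells for 2 of 9 (51.1%). Their median differences were -0.31 and -0.44, against 0.0040 and 0.029 for all genes. In astrocytes 6 of 9 were higher in astroTIPeR cells (54.4% of all genes), with a median of 0.38 (all genes 0.079). The sign of each role's median was the same with the values as deposited and with quantile normalization within each set of arrays. These counts read 1 probe set per gene. Mavs, Irf3, Stat2, Ifnar1 and Ifnar2, the 5 signalling genes with several, each had another with a higher mean in fibroTIPeR than in fibroblast cells. For Mavs it read 3.95 against 2.83. Irf3 and Ifnar2 had a further probe set with a lower mean as well. The low count in fibroTIPeR cells thus depends on the probe set read.

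Irf3, Irf9 and Ifnar2 read above the 75th percentile of genes in every cell, at 9.79 to 11.97, 9.91 to 12.53 and 12.28 to 13.04. So did the effectors Adar, at 12.46 to 13.84, and Oasl2, at 11.1 to 12.3. The 5 genes differed between compared groups by at most 0.50 in either direction in the 5 comparisons, but some groups did not overlap. Adar read 13.11 to 13.23 in fibroControl against 12.46 to 13.01 in fibroblast cells (difference 0.48, SE 0.21, limma adjusted p = 0.229) and averaged 13.50 in astroTIPeR cells. Oasl2 was higher without overlap in fibroControl and in cardiomyocyte than in fibroblast cells, and Irf3 in astroTIPeR than in astroControl cells, at limma adjusted p-values of 0.460, 0.498 and 0.845. Groups did not overlap for 23.4%, 12.6% and 11.8% of all genes in these comparisons, in that order. For Irf3, Ifnar2 and Adar the other probe sets of the gene read lower: those of Adar, the enzyme that edits adenosines in double-stranded RNA, lay between 2.95 and 7.91. The level of these genes therefore rests on which probe set is read. Cx3cr1, a microglial receptor, averaged 11.93 to 12.33 over the 6 groups, in cells that are not labelled as microglia.

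Among the 7 effectors that act on double-stranded RNA, Oas3 had the largest difference in fibroTIPeR cells and none was called. Oas3, which makes the oligoadenylates that activate RNase L, read 6.87, 6.07 and 4.95 in fibroblasts, 7.63, 7.24 and 8.95 in fibroControl and 9.54, 7.89, 10.08, 7.81 and 8.25 in fibroTIPeR cells. Every cell given RNA lay above every untreated fibroblast (groups did not overlap for 5.01% of all genes in the fibroTIPeR and 23.4% in the fibroControl comparison). The differences were 2.75 (SE 0.89, limma adjusted p = 0.291) and 1.98 (SE 1.0, adjusted p = 0.309), so neither passed over all genes. Oas3 in astrocytes read 6.48 to 8.82 (median 7.88) in astroTIPeR cells, around astroControl 1 at 6.61 and below astroControl 2 at 10.1.

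Eif2ak2, the kinase PKR that halts translation on binding double-stranded RNA, lay on the other side. It read 5.96, 6.21 and 6.83 in fibroblasts, 4.95, 4.12 and 4.86 in fibroControl and 5.32, 4.59, 5.10, 4.96 and 5.46 in fibroTIPeR cells. Again no cell given RNA overlapped the fibroblasts, this time below them, at -1.69 (SE 0.58, limma adjusted p = 0.126) in fibroControl and -1.25 (SE 0.52, adjusted p = 0.410) in fibroTIPeR cells. Groups did not overlap for 23.4% and 5.01% of all genes in these comparisons. Only 2 of its 3 probe sets had that sign in each comparison. Oas1a, a synthase of a family of near-identical genes that the probe set may not separate, read 4.61 ± 0.45 in fibroblasts, 5.32 ± 0.71 in fibroControl and 5.05 ± 0.75 in fibroTIPeR cells, within the spread.

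Oas2 had the smallest p in the astrocyte comparison, in the direction of a lower mean. It read 3.78 to 5.50 (median 4.65) in astroTIPeR cells against 5.50 and 8.09 in astroControl cells, a difference of -2.12 (SE 0.74, limma adjusted p = 0.287). The difference rests on astroControl 2: without it the value was -0.82, and without astroControl 1 it was -3.42 with an adjusted p of 0.0349. Over the role, 6 of 7 genes had a higher mean in fibroTIPeR and 5 of 7 in fibroControl cells than in untreated fibroblasts, with medians of 0.39 and 0.37. Over all genes the shares were 50.2% and 51.1%, with medians of 0.0040 and 0.029. The same 7 genes had a median of 0.71 in untreated cardiomyocytes against fibroblasts (all genes 0.087), with 6 of 7 higher (54.3% of all genes).

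**Figure D3:**
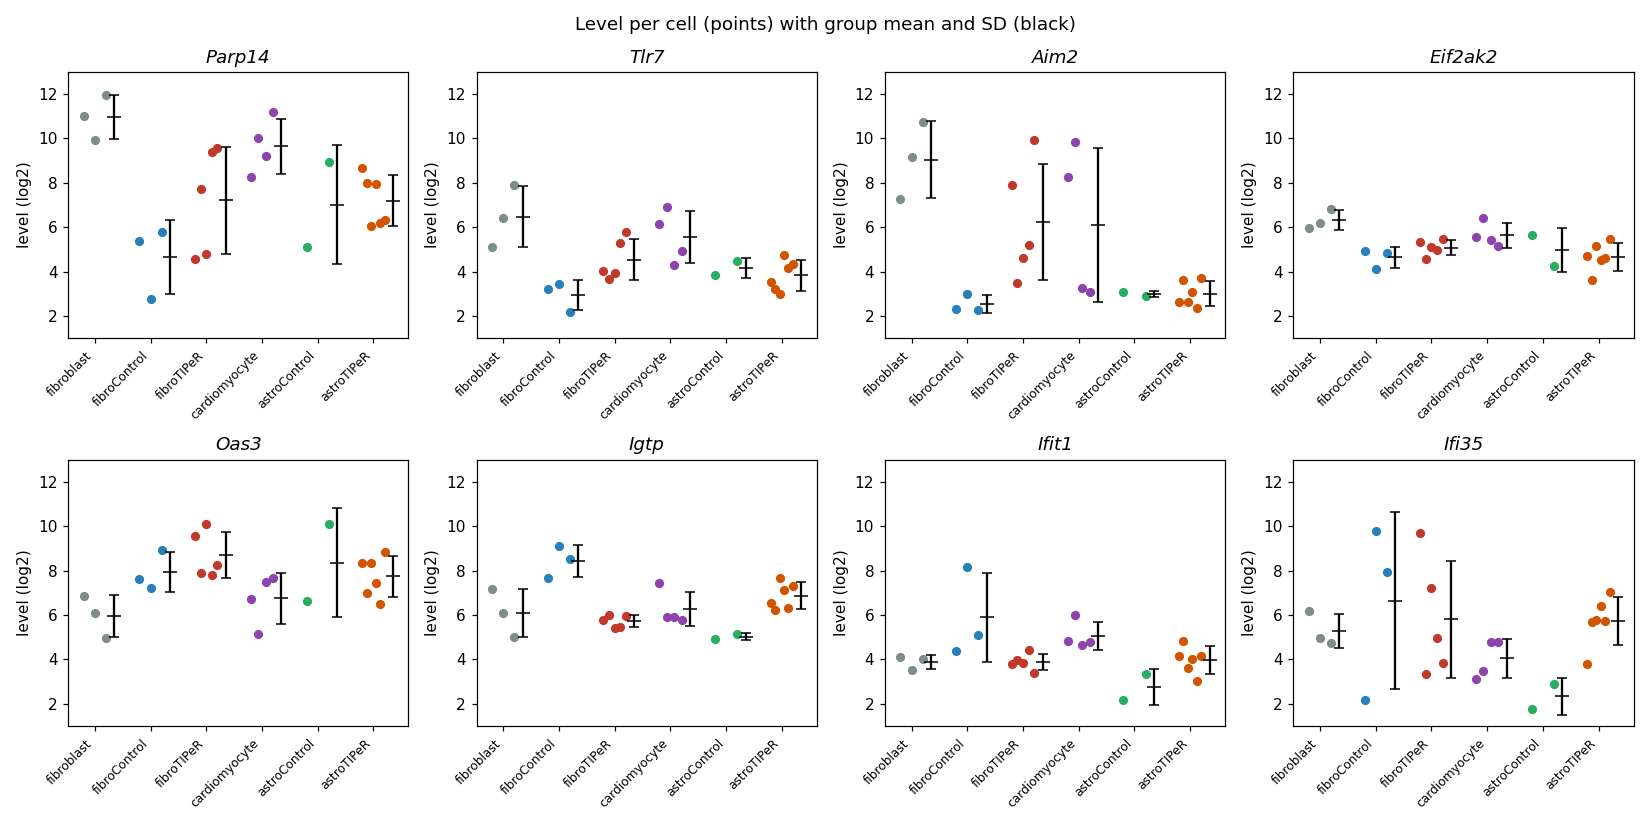
Level (log2) in each cell (points, coloured by group) of 8 genes, with the group mean and SD in black. By group mean among the fibroblast groups, Parp14, Tlr7 and Aim2 are lowest and Igtp is highest in the fibroControl cells. FibroTIPeR 1 and 3 read Parp14 below fibroControl 1 and 3. Oas3 lies higher and Eif2ak2 lower in both groups of fibroblasts given RNA.

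The third gene that fell in fibroControl cells was Parp14, an ADP-ribosyltransferase that interferon induces in many cells. It read 11.01, 9.95 and 11.95 in fibroblasts, 5.40, 2.76 and 5.80 in fibroControl and 4.58, 7.74, 4.78, 9.39 and 9.58 in fibroTIPeR cells. All 8 cells given RNA lay below the 3 fibroblasts, and fibroTIPeR 4 and 5 came closest to them. Groups did not overlap for 23.4% of all genes in the fibroControl and 5.01% in the fibroTIPeR comparison. The difference was -6.32 in fibroControl cells (SE 1.30, limma adjusted p = 0.0173) and -3.76 in fibroTIPeR cells (SE 1.16, adjusted p = 0.263). The gene's other probe set read between 2.76 and 5.97 in every cell and differed by -0.42 in fibroControl against fibroblast.

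Among the fibroblast groups, the cells in which the 3 genes read low were mostly cells of high 18S level. The exceptions were in Aim2, which fibroTIPeR 1, of high 18S, read at 7.91 and fibroTIPeR 4, of low 18S, at 5.21. With fibroTIPeR 1 to 3 alone, the cells of high 18S, limma called 610 of 18193 genes against untreated fibroblasts, with 2 of 37 members among them. These were Parp14 at -5.28 (limma adjusted p = 0.0150) and Tlr7 at -2.59 (adjusted p = 0.0432). With fibroTIPeR 4 and 5 alone 0 genes were called, members included, and Parp14 stood at -1.49. With the 18S level as a term in the model, none of the 3 passed in fibroControl against fibroblast: Parp14 was at -3.52 (adjusted p = 0.520), Tlr7 at -2.93 (adjusted p = 0.428) and Aim2 at -5.79 (adjusted p = 0.428). The 18S ranges of fibroControl and fibroblast cells do not overlap, so that its part and that of the added RNA cannot be told apart. The calls also rested on single cells: 0 of 37 members were called without fibroblast 3, and 1 without fibroblast 2 or without fibroControl 3. Over all 18193 genes 42 to 144 were called with 1 cell left out, against 283 with every cell.

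**Figure D4:**
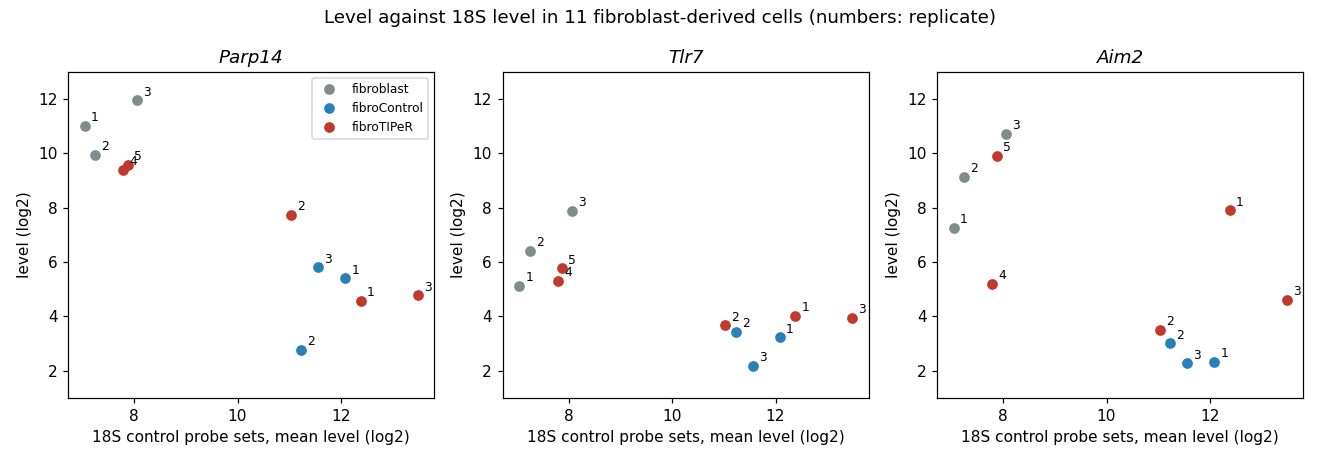
Level (log2) of Parp14, Tlr7 and Aim2 against the mean level (log2) of the 18S control probe sets in the 11 fibroblast-derived cells, coloured by group and numbered by replicate. FibroTIPeR 4 and 5 lie beside the untreated fibroblasts at low 18S, and fibroTIPeR 1 to 3 lie at the 18S level of the fibroControl cells.

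Among the other effectors, Igtp separated its groups in 3 comparisons without being called in any. Igtp (Irgm3), a GTPase that interferon gamma induces, read 7.15, 6.10 and 4.99 in fibroblasts, 7.65, 9.10 and 8.53 in fibroControl and 5.76, 6.02, 5.41, 5.45 and 5.94 in fibroTIPeR cells. The 3 fibroControl cells lay above all other fibroblasts. Against untreated cells the difference was 2.35 (SE 0.74, limma adjusted p = 0.0932), and groups did not overlap for 23.4% of all genes. The fibroTIPeR cells lay 2.71 below the fibroControl cells (difference -2.71, SE 0.66, adjusted p = 0.232), without overlap (3% of all genes). In astrocytes Igtp read 6.24 to 7.69 (median 6.84) in astroTIPeR cells and 4.90 and 5.13 in astroControl cells, without overlap (11.8% of all genes), at 1.86 (SE 0.74, adjusted p = 0.384). In fibroControl against fibroblast it passed with the probe sets of each gene averaged (adjusted p = 0.0457) and in a fit without a trend (adjusted p = 0.0456), although Igtp itself has 1 probe set.

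Ifit1, which binds RNA without a host cap, is a common readout of the interferon response. Here its mean over all cells stood at percentile 14.6 of genes. It read 4.10, 3.51 and 4.04 in fibroblasts, 4.39, 8.16 and 5.12 in fibroControl and 3.81, 3.98, 3.84, 4.43 and 3.37 in fibroTIPeR cells. All 3 fibroControl cells lay above every untreated fibroblast (groups did not overlap for 23.4% of all genes), fibroControl 2 farthest, while the fibroTIPeR cells overlapped the untreated ones. The difference was 2.01 in fibroControl cells (SE 0.69, limma adjusted p = 0.129), and in fibroTIPeR against untreated cells its interval ran from -1.28 to 1.28. In astrocytes Ifit1 read 3.02 to 4.85 (median 4.10) in astroTIPeR against 2.18 and 3.34 in astroControl cells, at 1.21 (SE 0.69, adjusted p = 0.627).

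Ifi35, an interferon-induced binding partner of Nmi, varied widely between cells of 1 group. It read 6.18, 4.97 and 4.74 in fibroblasts, 2.18, 9.80 and 7.96 in fibroControl and 9.69, 3.34, 7.21, 4.96 and 3.85 in fibroTIPeR cells, so that both groups given RNA held cells above and below all untreated ones. In astroTIPeR cells it read 3.78 to 7.04 (median 5.76) against 1.75 and 2.91 in astroControl cells, without overlap (11.8% of all genes), at 3.40 (SE 1.40, limma adjusted p = 0.408). Its 3 probe sets shared that sign. Ifit3, of the same family as Ifit1, differed by 1.81 in astrocytes (SE 0.81, adjusted p = 0.469) and by -1.57 in fibroTIPeR against fibroblast cells (SE 0.73, adjusted p = 0.468).

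Of the remaining effectors, Gbp3, a guanylate-binding GTPase, had a lower mean in fibroTIPeR than in fibroControl cells, at -1.85 (SE 0.62, limma adjusted p = 0.496), where fibroControl 1 read 7.86. Mx1, a GTPase that blocks viral nucleoproteins, read 5.19 ± 0.66 in fibroblasts (n = 3), 4.35 ± 0.81 in fibroControl (n = 3), 4.63 ± 0.50 in fibroTIPeR (n = 5) and 3.61 ± 0.70 in cardiomyocytes (n = 4). The cardiomyocyte difference of -1.57 (SE 0.62) had an adjusted p of 0.396. Irgm1, another GTPase of the Igtp family, read 8.91 ± 1.97 in astroTIPeR and 9.10 ± 1.73 in fibroblast cells, with spreads as wide as any difference between groups. The probe set shared by Isg15 and Gm9706 read 4.85 ± 0.22 in fibroblasts, 5.02 ± 1.73 in fibroControl, 4.89 ± 0.47 in fibroTIPeR, 5.43 ± 0.54 in astroTIPeR and 5.64 ± 2.08 in astroControl cells. Over the role, 12 of 15 other effectors had a higher mean in astroTIPeR than in astroControl cells, with a median of 0.32, against 8 of 15 and 0.28 in fibroControl and 5 of 15 and -0.37 in fibroTIPeR against fibroblast. Over all genes the share and median were 54.4% and 0.079, 51.1% and 0.029, and 50.2% and 0.0040, in that order. In the astroTIPeR cells Lyz2, the lysozyme of macrophages, read 6.34 to 12.46 and in the astroControl cells 4.69 and 11.3; the Gapdh difference between the ends was also larger in every astroTIPeR cell (2.94 to 5.05) than in the astroControl cells (1.51 and 2.63). The part of either in the astrocyte values was not tested.

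The effect of cardiomyocyte RNA was then compared between recipients, as the fibroTIPeR minus fibroControl difference less the astroTIPeR minus astroControl difference. The controls of the recipients differ, fibroblast RNA in one and a mock transfection in the other. Of 37 members 0 were called by limma (0% of all genes), with 4 at an unadjusted p under 0.05 (7.65% of all genes) and 14 above 0 (46.3%). Igtp had the smallest p, at -4.57 (SE 0.99, limma adjusted p = 0.191). Its mean was lower with cardiomyocyte than with fibroblast RNA in fibroblasts, and higher with cardiomyocyte RNA than with the mock in astrocytes. The fibroblast part rests on the fibroControl mean of 8.43. The fibroTIPeR mean of 5.72 was near that of untreated fibroblasts (6.08), and the fibroTIPeR cells lay within their range. Ifit1 stood at -3.22 (SE 0.93, adjusted p = 0.439), Ifi35 at -4.23 (SE 1.88, adjusted p = 0.595) and Oas2 at 2.49 (SE 0.99, adjusted p = 0.557). None of these 4 differed beyond the threshold, although Igtp passed with the probe sets of each gene averaged (adjusted p = 0.0487). Single cells moved the others: Oas2 was at 1.19 without astroControl 2 and 3.78 without astroControl 1, Ifi35 at -6.47 without fibroControl 1 and -2.65 without fibroControl 2, and Ifit1 at -2.08 without fibroControl 2.

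Genes with and without the response element in these 250 bases were set side by side. The 11 measured genes that hold it had a median difference of 0.60 in fibroControl against fibroblast, with 7 of 11 above 0, and the 17 without it -0.26, with 6 of 17 above 0. The medians were 0.76 and 0.31 in astroTIPeR against astroControl and 0.0012 and -0.25 in fibroTIPeR against fibroblast. Between fibroTIPeR and fibroControl cells they were -0.26 and -0.0094. No test was made, and the ranges overlapped: in fibroControl against fibroblast the genes with the element ran from -1.44 to 2.35 and those without it from -6.50 to 2.15.

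Of 66 other genes of the pathway, among them interferon genes, further sensors and antigen processing genes, 57 were measured. In fibroControl against fibroblast 2 of 57 fell (0.835% of all genes did) and 0 rose, with 14 at an unadjusted p under 0.05 (17.3% of all genes). Cxcl9, a chemokine that interferon gamma induces, was at 3.50 ± 0.14 against 8.13 ± 1.26 (n = 3 each; difference -4.62, SE 0.99, limma adjusted p = 0.0193). Ifna4, an interferon of a family of near-identical genes, was at 2.92 ± 1.30 against 6.32 ± 0.27 (difference -3.40, SE 0.75, adjusted p = 0.0233). With the 18S level as a term neither passed, Cxcl9 at -2.51 (adjusted p = 0.538) and Ifna4 at -2.13 (adjusted p = 0.522). Cxcl9 was also lost without fibroControl 1 or 3 or fibroblast 2 or 3 (adjusted p = 0.0530 to 0.0762), and Ifna4 without fibroControl 1 or 2 or fibroblast 2 or 3 (adjusted p = 0.0694 to 0.0988). In each of the other 4 comparisons and in the difference between recipients limma called 0 of 57, with 9 at an unadjusted p under 0.05 in fibroTIPeR against fibroblast (10.1% of all genes), 4 in fibroTIPeR against fibroControl (6.62%), 5 in astroTIPeR (9.44%), 6 in cardiomyocytes (9.72%) and 5 in the difference between recipients (7.65%).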

How the data were processed

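Each of the 23 samples was the amplified, biotin-labelled RNA of 1 cell on 1 array. The deposited values were log2 expression values per probe set, as judged from their range; no source used here gives the authors' summarization or normalization. Column medians were 5.05 to 5.58 in fibroblast and cardiomyocyte arrays and 4.28 to 4.56 in astrocyte arrays. They differed by 1.29, more than the 1 log2 unit allowed, so all columns were quantile normalized together. Detection calls were not used here.

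Gene symbols came from GEO's platform annotation. Of the probe sets, 34945 carried 1 symbol, 932 carried several and 9160 were not listed; 64 controls were left out. Per gene, the probe set with the highest mean over all cells was used, which gave 18193 genes. limma 3.58.1 in R 4.3.3 (lmFit with 6 group means over all cells, eBayes with a trend) was applied two-sided, with Benjamini-Hochberg adjustment over all genes and a threshold of 0.05; intervals are 95%. The code was tested on simulated data. Precision is limited by how few arrays each group has.

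The genes and lists were chosen with earlier results of these data known. Named were members past the threshold or the 4 of smallest p in each comparison, members with a mean above the 75th percentile of genes, and Ifih1, Dhx58, Tlr3, Eif2ak2, Isg15, Ifit1, Oas1a, Mx1, Stat2 and Irf7. Other members were named for their role or unadjusted p after their values were seen. Plots used Python 3.11.15 and matplotlib 3.10.9.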

Additional observations from a re-analysis of the deposited data

Results flagged for a closer look

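In 3 of 78 groups of 4 to 6 cells (3.85%, over 26 members), 1 cell stood far from the others of its group by Dixon's criterion; chance gives about 1 in 20. Cardiomyocyte 1 read Igtp at 7.44, where the other cardiomyocytes read 5.78 to 5.93. Cardiomyocyte 2 read Ifit1 at 6.01, where the others read 4.66 to 4.81. AstroTIPeR 3 read Irgm1 at 4.97, where the others read 8.93 to 10.1.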

How the results depend on the processing

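Of 438 differences of single members recomputed under an alternative, none reversed and 419 kept their side of the threshold. The members were those called or of smallest p in each comparison. A fit without a trend, genes above the median level, every probe set and the compared groups alone leave these differences unchanged. Those settings could not reverse a direction. Under every probe set only the one used was read, so probe sets of opposite sign are not counted. Members called in fibroControl against fibroblast numbered 3 in the report and at most 4 under an alternative. They numbered 1 among genes above the median level (15 members tested, Tlr7 and Aim2 not among them). With the 18S covariate there were 0, and with 1 cell left out 0 to 3 (0 without fibroblast 3). In fibroTIPeR against fibroblast 2 were called with fibroTIPeR 1 to 3 alone, in the difference between recipients 1 (Igtp) with the mean of all probe sets, and in astroTIPeR against astroControl 0 to 1 with 1 cell left out (Oas2, without astroControl 1), where a lone astroControl cell is assumed to vary like the other groups. Called genes numbered 10 in fibroTIPeR against fibroblast, 283 in fibroControl against fibroblast, 1 in fibroTIPeR against fibroControl, 9 in astroTIPeR against astroControl and 41 in cardiomyocyte against fibroblast. For fibroTIPeR against fibroblast they moved to 2 (quantile normalization within each array set; 1 higher, against 1 of 10), 1 (genes above the median level), 3 (mean of probe sets), 1 (no trend), 0 (compared groups alone), 0 (18S covariate), 610 (fibroTIPeR 1 to 3 alone), 0 (fibroTIPeR 4 and 5 alone) and 0 to 72 (1 cell left out, without fibroTIPeR 3 and without fibroTIPeR 5). For fibroControl against fibroblast they moved to 135 (values as deposited), 156 (within each array set), 173 (above the median level), 457 (every probe set), 86 (compared groups alone), 0 (18S covariate) and 42 to 144 (without fibroblast 2 and without fibroControl 3). For fibroTIPeR against fibroControl they moved to 0 (above the median level), 3 (mean of probe sets), 2 (no trend), 0 (compared groups alone), 3 (18S covariate), 0 (fibroTIPeR 1 to 3 alone), 161 (fibroTIPeR 4 and 5 alone) and 1 to 17 (1 cell left out, the latter without fibroControl 1). For astroTIPeR against astroControl they moved to 72 (as deposited; 27 higher, against 2 of 9), 87 (within each array set; 30 higher), 4 (above the median level), 5 (mean of probe sets), 26 (every probe set), 20 (18S covariate) and 4 to 543 (without astroTIPeR 5 and without astroControl 1). For cardiomyocyte against fibroblast they moved to 21 (as deposited), 18 (mean of probe sets), 21 (no trend), 2 (compared groups alone), 71 (18S covariate) and 11 to 37 (without fibroblast 3 and without cardiomyocyte 2). The cause was not tested. The labels link cells of different groups by a replicate number alone. The deviations of same-numbered cells correlated at -0.341 to 0.285. These values cannot decide whether the numbers pair cells, because differently numbered cells were not correlated beside them. With the replicate block fibroControl against fibroblast had 163 genes and the same 3 members, and astroTIPeR against astroControl 3 genes and 0 members. The values as deposited moved the median of all genes in fibroControl against fibroblast from 0.029 to -0.078.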
